A study of Mus musculus with 20 samples.

Results

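The mandibular process and the maxillary process of the wild-type mouse embryo at e13.5 (embryonic day) were compared by their histone H3 lysine-27 acetylation (H3K27ac), as broad peak lists of 1 library each among the 20 samples of the series. The other samples used were 8 H3K27ac libraries of wild-type facial tissue: the mandibular and maxillary processes and the medial and lateral nasal plates at e11.5, the nose at e13.5, and 3 libraries of e15.5. Labels give the tissue as freshly dissected with mixed cell types, and the number of embryos behind each library and their strain are not given for these libraries in the sources used here. The 2 lists were merged wherever peaks overlapped or touched, which gave 11814 regions. A region within 1 kb of any annotated transcript start was proximal and the others were distal. For the 3 libraries of e15.5 label and peak names disagree about the tissue, and these lists, called here by their label, enter no class.

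Both processes grow out of the first pharyngeal arch, whose neural crest mesenchyme forms the lower jaw from the mandibular process, and the upper jaw and the secondary palate from the maxillary process. Their identities follow a nested code of Dlx homeobox genes, in which Dlx1 and Dlx2 are used in both and Dlx5 and Dlx6 are used in the mandibular part, where endothelin signalling through Ednra turns on Dlx5, Dlx6 and then Hand2. Acetylation of H3K27 marks active promoters and enhancers, and genes that define a cell's identity often lie in broad acetylated domains.

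The clearest contrast was at a handful of patterning genes. Hand2, the transcription factor of the distal lower jaw, lay in an acetylated region of 16373 bp (chr8:57313421-57329793, mm10) in the mandibular list. Beside it, between genes and 9033 bp from the Hand2 start, was another of 9434 bp (chr8:57330016-57339449). The maxillary list held no peak in either. Pitx1, a homeobox gene of the mandible and hindlimb, had a region of 14447 bp (chr13:55823302-55837748) in the mandibular list and none in the maxillary list. In the other direction, the widest regions found in the maxillary list alone were at Ebf3 (16644 bp, chr7:137303545-137320188), Tbx15 (12707 bp, chr3:99247727-99260433) and Tfap2b (11776 bp, chr1:19206772-19218547), 3 genes of transcription factors of mesenchyme or neural crest. With 1 library per tissue there is no replicate error for any of these differences, so no test was made, and intervals given with shares cover counting error only.

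Sequences at the starts of genes that carried the contrast were chosen where a RefSeq promoter (build GRCm38.p6, the sequence of mm10, 300 bases around the start, on the gene's strand) overlapped the acetylated region. Capitals mark matches on either strand to any of the 21 consensus sequences searched. Hand2 and Dlx2, with a region in the mandibular list alone, stand first, then Gsc, whose region was wider in the mandibular list, and then Ebf3 and Shox2, with a region in the maxillary list alone.
Hand2 promoter, chr8:57320733-57321032, plus strand: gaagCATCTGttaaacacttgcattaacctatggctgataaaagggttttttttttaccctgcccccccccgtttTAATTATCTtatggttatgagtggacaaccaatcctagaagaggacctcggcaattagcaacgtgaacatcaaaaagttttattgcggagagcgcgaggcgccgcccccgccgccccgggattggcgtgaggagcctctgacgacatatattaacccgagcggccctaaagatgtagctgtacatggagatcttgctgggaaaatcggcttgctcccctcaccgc
Dlx2 promoter, chr2:71546705-71547004, minus strand: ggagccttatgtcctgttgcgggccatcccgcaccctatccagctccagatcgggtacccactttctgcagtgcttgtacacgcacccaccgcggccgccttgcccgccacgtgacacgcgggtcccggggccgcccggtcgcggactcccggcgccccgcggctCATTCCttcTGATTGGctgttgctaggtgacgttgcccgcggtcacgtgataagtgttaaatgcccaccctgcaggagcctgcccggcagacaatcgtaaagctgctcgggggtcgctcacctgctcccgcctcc
Gsc promoter, chr12:104473187-104473486, minus strand: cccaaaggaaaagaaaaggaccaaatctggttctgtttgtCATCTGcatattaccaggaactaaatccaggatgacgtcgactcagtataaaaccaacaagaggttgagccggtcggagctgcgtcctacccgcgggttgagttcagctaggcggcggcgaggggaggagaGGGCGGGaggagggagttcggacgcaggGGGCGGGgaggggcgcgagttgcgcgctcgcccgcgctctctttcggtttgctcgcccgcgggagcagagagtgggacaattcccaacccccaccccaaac
Ebf3 promoter, chr7:137314396-137314695, minus strand: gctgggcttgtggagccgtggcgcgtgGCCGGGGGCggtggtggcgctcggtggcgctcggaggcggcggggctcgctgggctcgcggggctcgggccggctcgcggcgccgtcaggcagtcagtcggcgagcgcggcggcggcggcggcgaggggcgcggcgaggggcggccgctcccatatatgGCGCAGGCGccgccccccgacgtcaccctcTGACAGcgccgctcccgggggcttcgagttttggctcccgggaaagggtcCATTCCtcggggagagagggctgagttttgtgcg
Shox2 promoter, chr3:66981722-66982021, minus strand: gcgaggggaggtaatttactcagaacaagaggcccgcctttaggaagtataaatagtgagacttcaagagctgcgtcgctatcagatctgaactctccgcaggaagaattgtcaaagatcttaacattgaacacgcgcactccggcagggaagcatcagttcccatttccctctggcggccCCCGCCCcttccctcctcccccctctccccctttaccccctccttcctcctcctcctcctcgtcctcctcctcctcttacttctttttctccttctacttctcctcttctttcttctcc

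The Hand2 promoter held 1 match to the homeodomain core TAATTA, which 4.61% of the RefSeq promoters of all 16522 matched protein-coding genes held. It held 1 match, on the other strand, to the E-box CAGATG of the Twist and Hand type (14.5% of promoters). A match to the GATA-factor site AGATAA (9.72% of promoters), also on the other strand, overlapped that of the homeodomain. The Gsc promoter held 1 CAGATG and 2 matches to GGGCGGG (SP/KLF, in 35.2% of promoters), and that of Dlx2 held GGAATG (TEAD, 13.2%) and CCAATCA (NF-Y, 9.41%). Ebf3, with 46 CpG dinucleotides in its 300 bases against a median of 14 over all promoters, held single matches to TGACAG (Meis, 18.4%), GGAATG, GCCNNNGGC (AP-2, 20.1%) and GCGCANGCG (NRF1, 9.19%). The Shox2 promoter held 1 GGGCGGG. A match describes the sequence only.

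The lists differed in yield before any gene was considered. The mandibular list held 6887 peaks on chromosomes 1 to 19, X and Y (14.2 Mb, median width 1815 bp), and the maxillary list held 10753 (21.3 Mb, median 1717 bp). The number of sequenced reads is unknown for both. The median −log10 q, the authors' significance of a peak within its own list, was 2.13 in the mandibular and 3.83 in the maxillary list, and 45.1% against 19.1% of peaks had a −log10 q under 2. Short peaks, under 500 bp, made up 9.40% of the mandibular and 2.12% of the maxillary list. The serial number in the deposited peak names ran up to 1159443 in the mandibular list and to 91698 in the maxillary list. The maxillary list had 3 peaks on chromosome Y and the mandibular list 0. The part these differences play in the class counts was not tested, and a region without a called peak may still be acetylated.

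Among 2706 distal regions, 949 had a peak in the mandibular list only (35.1%; exact 95% interval 33.3 to 36.9), 1000 in the maxillary list only (37.0%; 35.1 to 38.8) and 757 in both (28.0%; 26.3 to 29.7). Among 9108 proximal regions the classes held 294, 4072 and 4742. The near-even distal split depended on the threshold of the lists: with only the 6887 peaks of best q-value kept in each list it was 1329 mandibular-only against 195 maxillary-only regions, and with only peaks of a −log10 q of at least 2 it was 183 against 691. At promoters nearly all of the mandibular list, as deposited, lay within the maxillary one. Of the proximal regions of the mandibular list, 94.2% (93.5 to 94.8) were shared, against 53.8% (52.8 to 54.9) of those of the maxillary list. For distal regions the same shares were 44.4% (42.0 to 46.8) and 43.1% (40.8 to 45.4). The Jaccard index, the shared regions over all regions, was 0.280 for distal and 0.521 for proximal regions.

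Strength within a list went with being found in the other. The regions of each list were divided into 5 quintiles by q-value. In the best quintile of distal mandibular regions 83.6% (79.3 to 87.4) had a maxillary peak, and in the weakest quintile 23.5% (19.1 to 28.3). Distal maxillary regions went from 78.1% (73.4 to 82.3) to 22.2% (18 to 26.9), so the 2 lists ran close together. Proximal regions did not. The mandibular list kept 99.5% to 82.2% from best to weakest quintile, and for the maxillary list the share was 92.0% (90.6 to 93.2) in the best and 15.4% (13.7 to 17.1) in the weakest quintile.

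**Figure D1:**
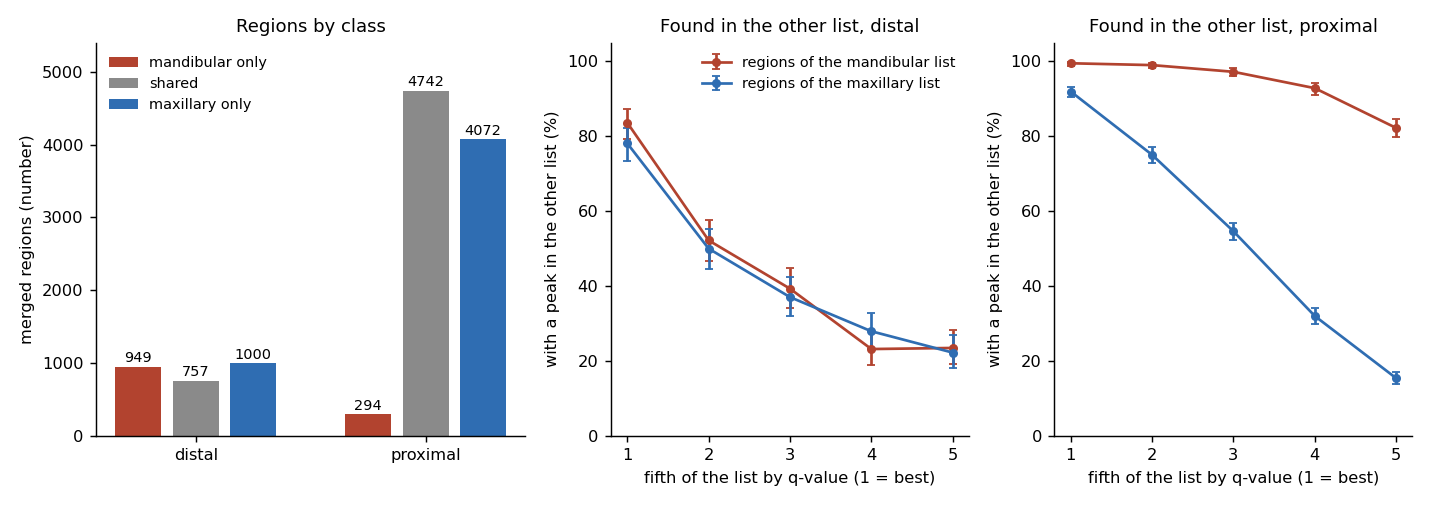
Left, the number of merged regions in each class, for distal and proximal regions. Middle and right, for each list divided into quintiles by q-value, the percentage of regions with a peak in the other list, with exact 95% intervals that cover counting error only. The distal curves of both lists lie together, from about 80% to about 23%, and the proximal curves part, at 82.2% for the mandibular and 15.4% for the maxillary list in the weakest quintile.

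One-library regions were shorter than shared ones, and within each list they had lower q-scores. The median width of distal regions was 523 bp for mandibular only and 1338 bp for maxillary only, and shared distal regions had 2387 bp and 2247 bp in the mandibular and maxillary list. Within the mandibular list the median −log10 q of distal regions was 1.54 for one-library and 2.04 for shared regions, and within the maxillary list 1.91 and 3.03. Among proximal regions the medians were 848 bp for mandibular only and 1403 bp for maxillary only, and 1995 bp and 2117 bp for shared. Distal mandibular-only regions lay in introns in 43.7% and between genes in 49.0% of cases, and maxillary-only regions in 35.1% and 57.0%. Only 9 mandibular-only and 25 maxillary-only regions covered 5 kb or more.

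The 8 lists that did not enter the classes show how often each class was seen elsewhere. Of the distal mandibular-only regions 394 (41.5%; 38.4 to 44.7) had no peak in any of them, against 34 (3.40%; 2.37 to 4.72) of the maxillary-only regions. Those 394 regions had a median width of 349 bp, and 333 of them were under 500 bp. The 555 mandibular-only regions that were found elsewhere had a median of 1020 bp. The e13.5 nose had a peak in 46.6% (43.4 to 49.8) of distal mandibular-only, 92.3% (90.5 to 93.9) of maxillary-only and 99.5% (98.7 to 99.9) of shared regions, and in 97.6% (97.1 to 98.1) of the proximal maxillary-only regions. Nearly all promoter regions of the maxillary-only class were thus acetylated in the nose of the same stage. The nose list, with 25941 peaks, was also the longest of the series.

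**Figure D2:**
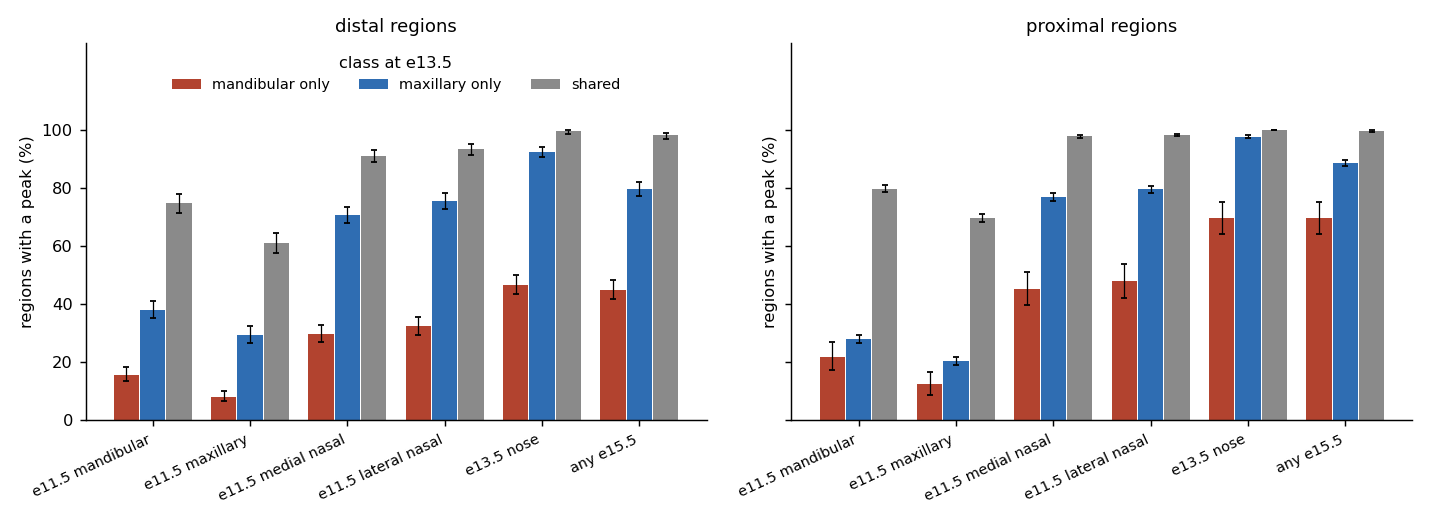
Percentage of regions of each e13.5 class with a peak in each of 5 other libraries and in at least 1 of the 3 libraries of e15.5, for distal (left) and proximal (right) regions, with exact 95% intervals that cover counting error only. In each library the shared regions stand highest and the mandibular-only regions lowest, for example 46.6% against 92.3% and 99.5% of distal regions in the e13.5 nose.

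At e11.5 the same 2 processes were profiled, and there the mandibular list was the longer one, with 8402 peaks against 6571. Of the distal mandibular-only regions of e13.5, 148 (15.6%; 13.3 to 18.1) had a peak in the e11.5 mandibular and 76 (8.01%; 6.36 to 9.92) in the e11.5 maxillary list. Of the maxillary-only regions, 380 (38.0%; 35 to 41.1) and 293 (29.3%; 26.5 to 32.2) did. Among regions with a peak in exactly 1 of the e11.5 lists, the mandibular one held 80.0% (71.7 to 86.8) for the mandibular-only, 68.1% (61.8 to 73.9) for the maxillary-only and 79.8% (73.0 to 85.5) for the shared class, so over all sizes the mandibular-only class did not stand above the shared one. Among distal regions of 3 kb or more the numbers were 14 against 1 for mandibular only, 6 against 9 for maxillary only and 40 against 8 for shared. All 9 mandibular-only regions of 5 kb or more, distal and proximal, had more acetylated bases in the e11.5 mandibular than in the e11.5 maxillary list. Of the 25 maxillary-only ones, 7 had more in the maxillary and 11 more in the mandibular e11.5 list, and 7 had no peak in either.

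Hand2 and Pitx1 were acetylated in the mandibular lists of both e11.5 and e13.5. Over the 16373-bp Hand2 region the e11.5 mandibular list covered 15982 bp, and the e11.5 maxillary, both nasal plate and the e13.5 nose lists covered 0 bp. Over the Pitx1 region they covered 14189 bp in the e11.5 mandibular, 0 bp in the e11.5 maxillary, 551 bp and 454 bp in the medial and lateral nasal plates and 0 bp in the nose. The domains of both genes were thus present, nearly whole, in the mandibular lists of both stages. The e15.5 library labelled maxillary process, whose peak names carry the abbreviation md, covered all 16373 bp at Hand2 and 13685 bp at Pitx1, and the libraries labelled mandibular process and nose covered 0 bp at both.

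The 3 widest maxillary-only domains had little or no coverage in the e11.5 jaw lists. At the Ebf3 region, which covered the start of this gene of an EBF transcription factor, the e11.5 mandibular list covered 825 bp, the e11.5 maxillary list 0 bp and the e13.5 nose 8183 bp. The medial and lateral nasal plates of e11.5 covered 2881 bp and 2174 bp of it. Tbx15, a T-box gene of craniofacial and limb mesenchyme, had 1843 bp in the e11.5 maxillary list and 0 bp in the e11.5 mandibular, nasal plate and e13.5 nose lists. The e15.5 libraries covered 2579 bp to 5766 bp of this domain, so no other list held it whole. Tfap2b, an AP-2 factor of the neural crest, had 0 bp in both e11.5 jaw lists and was covered over its whole region in the e13.5 nose (11776 bp). It was already covered at e11.5 in the medial (11776 bp) and lateral (11197 bp) nasal plates. Tfap2a, the neural crest AP-2 factor, had 8214 bp in the maxillary list, in the nose and in both nasal plates. It had 3670 bp in the e11.5 maxillary and 0 bp in the e11.5 mandibular list.

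These classes depended on the threshold of the lists. When the maxillary list was cut to its 6887 peaks of best q-value, which leaves the mandibular list of that length as it is and so cannot end a mandibular-only call, 10 of the 25 maxillary-only regions of 5 kb or more remained one-sided, among them Tbx15, Tfap2a, Shox2 and Osr2 but not Ebf3 or Tfap2b. When only peaks with a −log10 q of at least 2 were kept, 3 of the 9 mandibular-only regions of that width remained. They were 2 at or beside Hand2 and 1 at Pitx1. Of the 25 maxillary-only regions 18 remained, among them Ebf3 and Tbx15 but not Tfap2b.

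**Figure D3:**
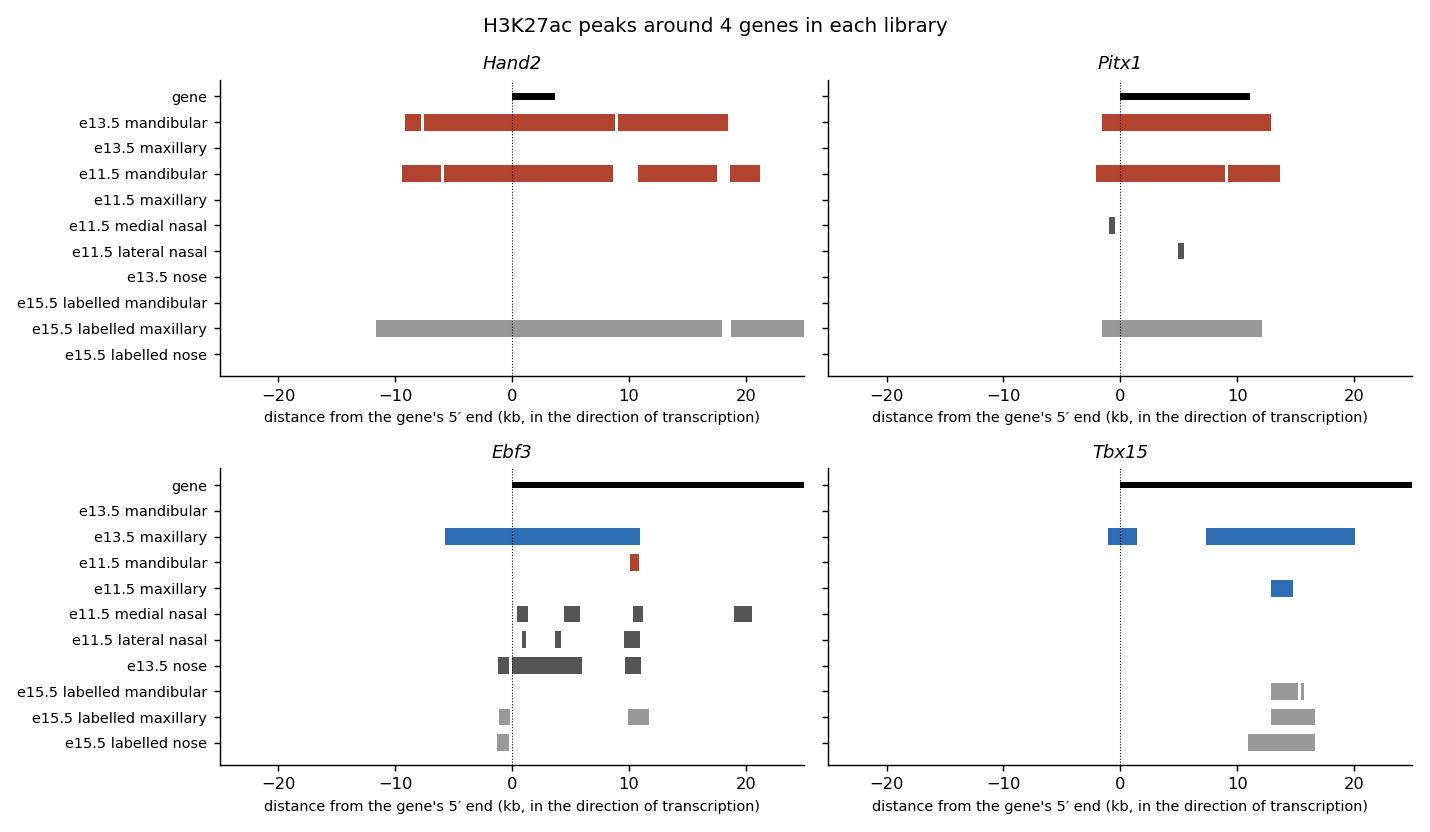
Peaks of all 10 H3K27ac lists within 25 kb of the 5′ ends of Hand2, Pitx1, Ebf3 and Tbx15, drawn as bars over distance in kb, with the gene body in black, mandibular lists in red, maxillary lists in blue and the other lists in grey. Hand2 and Pitx1 carry wide bars in both mandibular lists and the e15.5 library labelled maxillary, and Ebf3 and Tbx15 carry their widest bars (16644 bp and 12707 bp) in the e13.5 maxillary list.

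For a measure that does not depend on how peaks merge, the acetylated bases within 10 kb of a gene's 5′ end were counted in every list. Of 9992 genes with any such bases at e13.5, 72 (0.721%) had at least 2000 bp more in the mandibular and 1169 (11.7%) at least 2000 bp more in the maxillary list. Of the 15 genes of the distal jaw list 9 had any such bases, with 4 among the former and 3 among the latter. The 17 genes of the maxillary and palate list, 11 of them with such bases, gave 1 and 7. The 10 frontonasal genes, 8 of them with such bases, gave 1 and 4. In all, the distal jaw genes held 55367 bp in the mandibular and 30929 bp in the maxillary list. The maxillary and palate genes held 45733 bp and 81206 bp. Over all protein-coding genes the same sums were 14085359 bp and 22375255 bp.

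The 4 distal jaw genes with more in the mandibular list were the core of the Dlx and Hand pathway. Hand2 had 18704 bp in the mandibular and 0 bp in the maxillary list, with 17833 bp and 0 bp at e11.5. Dlx5 had 10058 bp and 2483 bp, with 10091 bp and 0 bp at e11.5. Its partner Dlx6, which lies beside it in opposite orientation, had 5758 bp and 0 bp, with 15106 bp and 0 bp at e11.5. Dlx5 and Dlx6 are the homeobox genes that set mandibular identity, and at both stages each had more bases in the mandibular list. Gsc, a homeobox gene downstream of endothelin signalling, had 9257 bp and 3256 bp, with 7801 bp and 0 bp at e11.5. The e13.5 mandibular peaks at Dlx5 and Gsc had a best −log10 q of 1.62 and 1.55, so neither was kept at a −log10 q of at least 2.

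Upstream members of the endothelin pathway did not divide this way. The receptor gene Ednra had 3124 bp in the mandibular and 2189 bp in the maxillary list. Ece1, for the enzyme that processes endothelin, had 0 bp and 2196 bp, and the G-protein gene Gnaq had 0 bp and 2400 bp. Plcb4, for a phospholipase of the same cascade, had 0 bp and 834 bp. The ligand gene Edn1, made in epithelium, had 0 bp in both, as did Hand1, Dlx3, Dlx4 and Gbx2. Mef2c, a transcription factor gene of the same pathway, had a region of 4771 bp over an annotated start in the maxillary list alone, outside the window at its 5′ end. Tbx3, a T-box gene of the ventral arch, was acetylated in both, with 8466 bp and 17571 bp.

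Of the genes on the maxillary and palate list, Pou3f3, a POU-factor gene of the maxillary process, was the most one-sided. It had 8436 bp in the maxillary and 0 bp in the mandibular list at e13.5, and 8888 bp and 0 bp at e11.5. All 5 of its regions, for example those at chr1:42684079-42687641 (3563 bp) and chr1:42697362-42700998 (3637 bp), had a peak in both maxillary lists, the medial nasal plate and the e13.5 nose, and none in either mandibular list or the lateral nasal plate. Shox2, a homeobox gene of the anterior palate, had 6996 bp in the maxillary and 631 bp in the mandibular list. Osr2, a zinc-finger gene needed for palatal shelf growth, had 6370 bp and 0 bp, and Efnb1, for the ligand ephrin-B1, had 4900 bp and 0 bp. Unlike Pou3f3, these 3 genes had at most 243 bp in either jaw list at e11.5.

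Other genes of the list were acetylated in both. Lhx8, a LIM homeobox gene of the oral mesenchyme, had 11425 bp in the mandibular and 16198 bp in the maxillary list, and Lhx6, its relative, had 3415 bp and 5435 bp. Mn1, a gene of the palate and of membranous bone, had 6535 bp and 11683 bp. Osr1, the relative of Osr2, had 6303 bp and 6335 bp. Tgfb3, needed for fusion of the palatal shelves, had 3023 bp and 2469 bp.

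Dlx1 and Dlx2, the pair of the nested code used in both processes, had 0 bp in the maxillary list at e13.5. Dlx2 had 3884 bp and Dlx1 0 bp in the mandibular list. At e11.5 Dlx1 had 9860 bp in the mandibular and 4860 bp in the maxillary list, and Dlx2 had 10094 bp and 7855 bp. Both genes were thus acetylated in both processes at the earlier stage. Meox2, Tbx22, Pax9, Barx1 and Sim2 had 0 bp in both lists at e13.5. Of the 4 palate markers fixed for the label (Shox2, Meox2, Tbx22, Pax9) only Shox2 was therefore seen, while Pax9 had 12759 bp in the e13.5 nose. For the mandibular label, Hand2, Dlx5 and Dlx6 of the 4 markers were seen, and Hand1 was not.

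**Figure D4:**
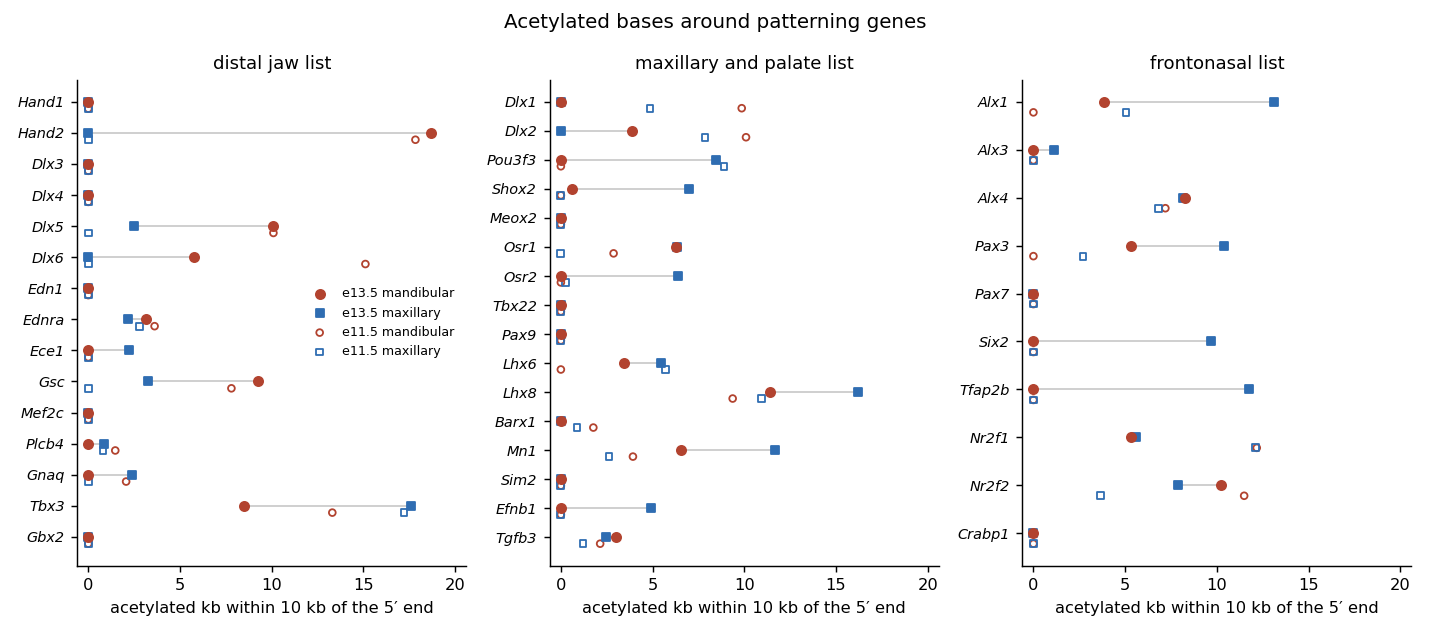
Acetylated bases (kb) within 10 kb of the 5′ end of genes of 3 lists, with filled symbols for e13.5, open symbols for e11.5, red circles for the mandibular and blue squares for the maxillary process, 1 library each. Hand2, Dlx5, Dlx6 and Gsc lie to the right in red, and Pou3f3, Shox2, Osr2, Six2, Tfap2b and Alx1 lie to the right in blue.

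Of the 10 frontonasal genes, 8 had acetylated bases in the window, 4 with at least 2000 bp more in the maxillary list and 1 in the mandibular list. Six2, a homeobox gene of the frontonasal mesenchyme, had 0 bp in the mandibular and 9676 bp in the maxillary list, and Tfap2b had 0 bp and 11776 bp. Alx1 had 3825 bp and 13133 bp, and the paired-box gene Pax3 had 5303 bp and 10383 bp. Alx1 and Pax3 each had 0 bp in the e11.5 mandibular list and bases in the e11.5 maxillary list (5044 bp and 2700 bp). Alx4 (8281 bp and 8142 bp) and the orphan receptor gene Nr2f1 (5304 bp and 5579 bp) were near equal, and Nr2f2, for a related receptor, had 10253 bp in the mandibular and 7866 bp in the maxillary list. Pax7 and Crabp1 had 0 bp in both.

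Most genes of the facial mesenchyme list were acetylated in both lists. Of its 16 genes, 13 had a peak within 1 kb of a start in both lists. Twist1 had 11777 bp and 12136 bp in the mandibular and maxillary list, Prrx1 had 12060 bp and 11129 bp, Msx1 had 11837 bp and 12538 bp, and Pdgfra had 9545 bp and 9586 bp. These 4 are the markers of facial mesenchyme used to check the label, and each had bases in both lists. Of the 16 genes, 15 had acetylated bases in the window. None had 2000 bp more in the mandibular list, and 4 had 2000 bp more in the maxillary list. The latter share was 11.7% of all genes with any such bases. The 4 genes were Twist2 (2994 bp and 8861 bp), Meis1 (7369 bp and 12608 bp), Zeb2 (6529 bp and 10822 bp) and Snai1 (2075 bp and 6355 bp). Over the whole list the windows summed to 108469 bp and 129690 bp.

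Promoters were also classed gene by gene. Of 9249 protein-coding genes with a peak within 1 kb of a start in either list, 5101 had one in both, 169 (1.83%) in the mandibular list only and 3979 (43.0%) in the maxillary list only. Of the 3979, 97.6% had an acetylated promoter in the e13.5 nose, and of the 169, 78.7%. Among the lists, mandibular-only promoters were found for Hand2 and Dlx6 of the distal jaw, Dlx2 of the maxillary and palate, Zeb1 of the facial mesenchyme, Pitx1 of the tooth and Hapln1 of the cartilage list. Maxillary-only promoters are given beside the genes of each list with an acetylated promoter in either e13.5 list. They numbered 4 of 10 in the distal jaw, 4 of 11 in the maxillary and palate and 3 of 8 in the frontonasal list. Among the facial mesenchyme genes there was 1 of 15, and among the tooth genes 2 of 5. Bmp4, an early signal of the tooth field, was one of the last. Housekeeping genes gave 10 in both lists and 2 in the maxillary list only, and cell cycle genes 5 and 6. For all genes with an acetylated promoter in either list the maxillary-only share was 43.0%, and for such cell cycle genes it was 6 of 11.

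Pathway and tissue lists filled out the picture. Of 11 BMP response genes, 6 had an acetylated promoter in both lists and 4 (Bambi, Bmp2, Bmp4 and Bmp7) in the maxillary list only, which is 4 of the 10 with an acetylated promoter beside 43.0% of all such genes. For Wnt response (11 genes) the counts in both and in the maxillary list only were 2 and 2, for Hedgehog response (10 genes) 3 and 1, for bone (11 genes) 3 and 0, for hair and vibrissa placodes (12 genes) 3 and 0, and for tendon and fibroblast genes (13 genes) 8 and 1. Lef1, the Wnt effector, was acetylated in both with 2978 bp in the mandibular and 10755 bp in the maxillary list around its 5′ end, and 3609 bp and 11491 bp at e11.5.

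Markers of other tissues were scarce in both lists, and counts are again given for both lists and for the maxillary list only. Of all 21911 protein-coding genes, 9249 had an acetylated promoter in either list, and 43.0% of these had it in the maxillary list only. No gene of the skeletal muscle (17 genes), blood and macrophage (10) or Hox (10) lists had an acetylated promoter in either. Epithelium (18 genes) gave 0 in both lists and 2 in the maxillary list only, Grhl2 and Tfap2a. Cartilage (17 genes) gave 1 and 2, endothelium (13) 0 and 1, sensory neuron (10) 0 and 1, glia and melanocyte (9) 2 and 0, forebrain and eye (8) 0 and 1, and olfactory genes (8) 0 and 1. The 1 gene of the forebrain and eye list was Emx2, with 6673 bp in the maxillary list. Around their 5′ ends the endothelial genes summed to 0 bp in the mandibular and 4430 bp in the maxillary list, and the muscle genes to 0 bp in both. Over all protein-coding genes the sums were 14085359 bp and 22375255 bp. The epithelial genes summed to 0 bp and 7749 bp. Of the latter, 5471 bp lay around Tfap2a, also a neural crest factor, 1339 bp around Cldn6 and 939 bp around Grhl2. Trp63, Krt5 and Epcam had 0 bp in both lists. The part of other cell types in the differences above was not tested, and a smaller share of a cell type and less acetylation in it cannot be told apart in whole tissue.

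The widths of the 5499 shared regions were close in the 2 lists. The median log2 ratio of the mandibular over the maxillary width was 0.02 for the 757 distal regions (quartiles −0.30 and 0.30) and −0.09 for the 4742 proximal regions (quartiles −0.39 and 0.16). At least a 2-fold greater width was found for 67 regions (1.22%) in the mandibular and for 334 (6.07%) in the maxillary list. By kind these were 23 and 41 distal regions, and 44 and 293 proximal regions. Shared proximal regions under 2 kb had a median of −0.16 and those of 4 to 8 kb a median of 0.005. Most of the 293 proximal regions wider in the maxillary list were thus of modest size, 133 under 2 kb and 132 of 2 to 4 kb.

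Dlx5 headed the shared regions that were wider in the mandibular list. Its region (chr6:6873415-6883472) covered 10058 bp there and 2483 bp in the maxillary list, a log2 ratio of 2.02 (4.05-fold). Gsc (chr12:104469440-104478696), with 9257 bp and 3256 bp, had a ratio of 1.51. Both were of width 9 kb or more in the mandibular list, and among regions with 2000 bp or more in one list the other 8 of the 10 most mandibular were narrower. They lay at or near Ankrd39, C87436, Sirt4, Pcdh18, Kazald1, Myoz3, Nfatc1 and Adamtsl4, with 2053 bp (Pcdh18) to 5567 bp (Sirt4) in the mandibular list. Within the mandibular list the best −log10 q was 1.62 at Dlx5 and 1.55 at Gsc, and within the maxillary list 1.485 and 2.40. With only peaks of a −log10 q of at least 2 kept, Dlx5 had no peak in either list and Gsc a maxillary peak only.

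The 10 shared regions most widened in the maxillary list were of another kind. They were at Lrrc42, Phc2, Lonrf1, Rapgef2, Csnk1g3, Mrm3, Arl5a, Rpl34, Retreg3 and Zmym4, and 9 of them were proximal. Lrrc42 had 289 bp in the mandibular and 2780 bp in the maxillary list (log2 ratio −3.27), and Phc2, a Polycomb gene, had 433 bp and 3276 bp (−2.92). Each held only a narrow mandibular peak, of 283 bp (Rapgef2) to 679 bp (Mrm3). In the e13.5 nose 9 of these regions had between 1643 bp and 3276 bp and the region near Mrm3 had 4477 bp, so their width in the maxillary list was like that in the nose.

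**Figure D5:**
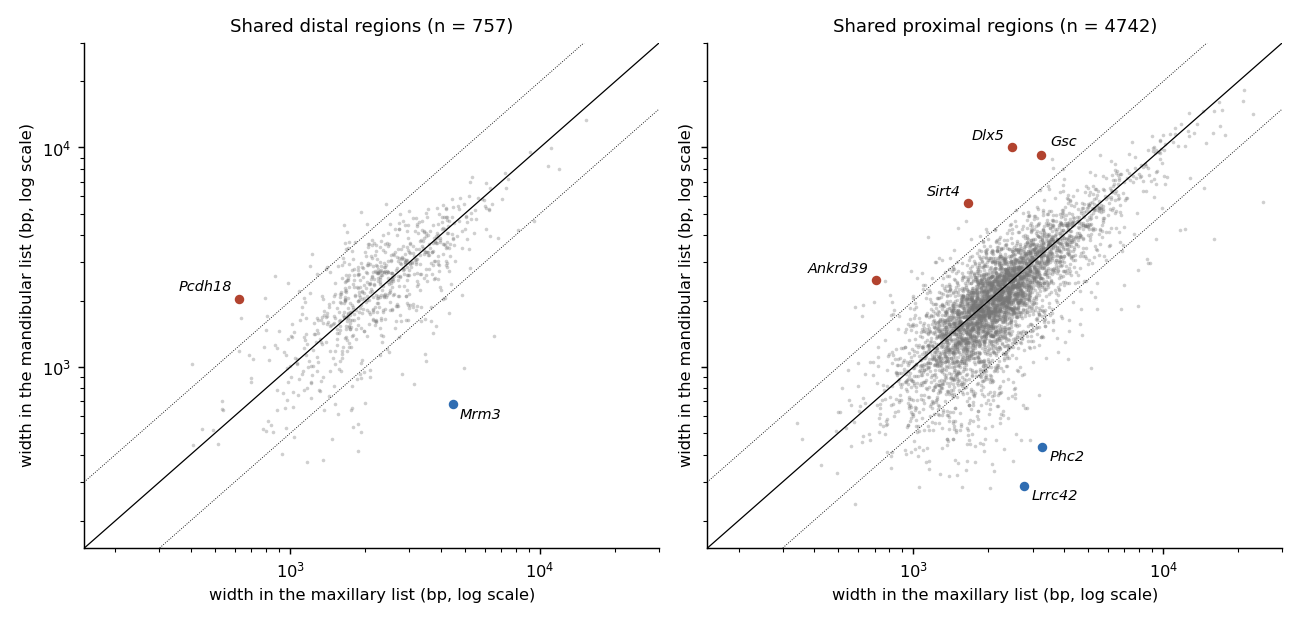
Width in the mandibular against the maxillary list (bp, both axes on a log scale) for the 757 distal and 4742 proximal shared regions, with lines at equality (solid) and at 2-fold (dotted). Dlx5 (10058 bp against 2483 bp) and Gsc (9257 bp against 3256 bp) stand above the cloud, and Lrrc42 and Phc2 stand below it.

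The distal regions widest in one list were then read gene by gene. The widest mandibular-only distal region covered 6864 bp near Scx, the tendon transcription factor gene (chr15:76460900-76467763, 3380 bp from its start and over an exon of a neighbouring transcript). It had 6309 bp in the e11.5 mandibular, 0 bp in the e11.5 maxillary and 6750 bp in the e13.5 nose list. With only peaks of a −log10 q of at least 2 kept, neither e13.5 list had a peak there. The others in the first 10 lay nearest to Pitpnb, Ddc, Gadd45b, Baalc, Npvf, Nfia, Hlf, Csnk1a1 and Sept9, with 6158 bp to 4235 bp. The nearest gene need not be the one regulated. Those near Ddc, Gadd45b, Baalc, Nfia, Hlf and Sept9 were, like that of Scx, present in the e11.5 mandibular list. They were absent from the e11.5 maxillary list. All of these regions, that of Scx included, also had peaks in both nasal plate lists and in the e13.5 nose list. In the e13.5 mandibular list each of them except that near Sept9 had a −log10 q under 2.

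The widest maxillary-only distal region covered 7043 bp, 14269 bp from Twist1, the mesenchymal E-box factor gene (chr12:33971940-33978982, between genes). It had 0 bp in both e11.5 jaw lists and 2265 bp in the e13.5 nose. Next came a region of 5764 bp whose nearest gene was Ednra at 101777 bp (chr8:77826241-77832004), with 4632 bp in the e11.5 mandibular and 3784 bp in the e11.5 maxillary list. The regions near Twist1 and Ednra had no peak in either list when only peaks with a −log10 q of at least 2, or only the 6887 of best q-value, were kept. The remaining 8 lay nearest to Cdh5, Mrpl23, Ephb3, Gm21969, Twist2, Stx18, Dclk2 and Mylk, with 5643 bp to 4630 bp. Twist2, the relative of Twist1, was 40028 bp from its region of 5033 bp. The central 300 bases of the widest distal region of each class are shown on the plus strand of mm10, with matches in capitals as above. Each holds 1 CAGATG E-box, and that near Scx also holds CAGCTG, an E-box of the MyoD type.
Scx distal region, chr15:76464182-76464481: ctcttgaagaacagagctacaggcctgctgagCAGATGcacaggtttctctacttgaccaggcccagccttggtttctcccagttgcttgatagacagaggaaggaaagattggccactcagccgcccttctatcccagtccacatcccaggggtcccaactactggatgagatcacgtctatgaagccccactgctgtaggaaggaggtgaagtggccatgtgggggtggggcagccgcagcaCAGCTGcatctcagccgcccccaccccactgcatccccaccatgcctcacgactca
Twist1 distal region, chr12:33975311-33975610: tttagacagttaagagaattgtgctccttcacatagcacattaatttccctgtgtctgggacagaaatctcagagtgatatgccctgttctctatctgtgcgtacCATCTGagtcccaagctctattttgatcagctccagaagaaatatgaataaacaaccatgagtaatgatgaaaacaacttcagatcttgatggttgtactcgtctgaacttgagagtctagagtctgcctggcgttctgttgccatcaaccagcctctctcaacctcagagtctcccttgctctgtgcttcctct

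Over all distal regions the central 300 bases held CAGATG in 28.0% of the mandibular-only, 24.8% of the maxillary-only and 25.5% of the shared regions (26.1% of all). TAATTA was in 6.01%, 6.50% and 4.36% (5.73% of all), and TGACAG in 21.2%, 16.2% and 15.9% (17.9% of all). The CpG-rich GGGCGGG was lowest in the mandibular-only regions, in 3.69%, 11% and 13.1% (9.02% of all). Base composition moved with it, with a median GC content of 47.6%, 48.7% and 49.4% and a median of 12.3, 16.0 and 15.8 CpG per kb in the 3 classes. At RefSeq promoters GGGCGGG was present in 53.2% of mandibular-only, 49.2% of maxillary-only and 49.9% of shared genes, and in 23.7% of genes with no acetylated promoter in either list. The part of base composition in the motif shares was not tested.

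Proximal regions of 5 kb or more in the mandibular list alone included, besides Hand2 and Pitx1, the regions at Mest (7822 bp, chr6:30733638-30741459) and Cep41 (6209 bp, chr6:30651491-30657699), which are neighbours on chromosome 6. Mest, an imprinted gene expressed from the paternal copy in mesoderm, had 5094 bp in the e11.5 mandibular, 2924 bp in the e11.5 maxillary and 6321 bp in the e13.5 nose list. Cep41 had 3242 bp, 0 bp and 5108 bp. Both were thus acetylated outside the mandibular process too, unlike Hand2.

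In the maxillary list alone the next widest proximal regions after Tfap2a were at Omd (7752 bp), Emx2 (6673 bp), Fzd10 (6405 bp), Osr2 (6370 bp), 2010111I01Rik (6251 bp), Hist1h2ak (5933 bp) and Six2 (5763 bp). Fzd10, a Wnt receptor gene, had 4871 bp in the e11.5 maxillary and 0 bp in the e11.5 mandibular list. Omd, for the bone matrix protein osteomodulin, had bases in both e11.5 jaw lists (3546 bp mandibular and 4604 bp maxillary). Osr2 and Six2 had 0 bp in both e11.5 jaw lists over these regions and were whole in the e13.5 nose (6370 bp and 5763 bp). These genes beyond the first 5 were named after their values were seen.

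Genes with several one-library distal regions within 100 kb were few. Of the distal regions 740 mandibular-only, 837 maxillary-only and 672 shared ones lay within 100 kb of a protein-coding start, nearest to 673, 737 and 557 genes. Arhgap28 and Smad7, an inhibitor of TGF-β and BMP signalling, had 4 mandibular-only regions each, with 2338 bp and 3730 bp in all, and Ankrd55, Arid5b and Col26a1 had 3. Dnm3, whose introns hold the mesenchymal transcript Dnm3os, had 6 maxillary-only regions (12428 bp), 6 shared and 1 mandibular-only. Bcl9, Cald1, Col1a1 and Dclk1 followed with 3 maxillary-only regions. Col1a1, the collagen gene of bone and connective tissue, had 0 mandibular-only and 2 shared regions beside its 3, which held 7163 bp.

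Near the genes of the distal jaw list lay 3 mandibular-only, 6 maxillary-only and 1 shared distal regions, beside 35.1% and 37.0% of all distal regions in the 2 one-library classes. Near the maxillary and palate list they numbered 2, 2 and 0. Members of other lists with one-library distal regions were Col5a1 (2 mandibular-only), Twist2 (1 mandibular-only and 2 maxillary-only) and Gas1 (1 and 2).

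Regions of the highest rank in one list without a peak in the other were mostly not the wide domains. In the mandibular list the proximal region with the best −log10 q of all, 51.2, was at the heat-shock gene Hspa1a (1171 bp, 24.5-fold enrichment, chr17:34971808-34972978), and it had no maxillary peak. The next 3 without a maxillary peak were at the predicted genes Gm10800, Gm10801 and Gm10717, in sequence that is 69.1%, 59.7% and 97.5% repeat-masked in the reference. Repeat-masked bases made up 50% or more of 36 distal mandibular-only regions (3.79%) and of 5 maxillary-only regions (0.5%). In the maxillary list the best proximal region without a mandibular peak was at the cell cycle kinase gene Cdk4 (1612 bp, −log10 q 19.5), with rank 56 of 8814. The mandibular Hand2 region ranked 1500 of 5036 by q-value. The genes of this paragraph other than Hand2 were named after their values were seen.

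Regions with the same one-sided state at both stages make a shorter list. A peak in both mandibular and neither maxillary list was found for 96 distal and 43 proximal regions, and a peak in both maxillary and neither mandibular list for 77 and 325. Of the 96, 4 had no peak in the nasal plates of e11.5 or the nose of e13.5. The same held for 3 of the 43, all of them at or beside Hand2. Of the 77 none was without a nasal peak, and of the 325 the single one was that of Tbx15. The 4 distal ones included none near a gene of the distal jaw list.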

How the data were processed

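H3K27ac ChIP-seq of wild-type mouse facial tissue was deposited as broad peak lists for 10 libraries. The 10 inputs were left aside. Peak calling with MACS2 2.2.4 on mm10, after BWA 0.7.7 and SAMtools 0.1.19, is listed among the submitters' processing notes. For each peak the authors deposited a score, a fold enrichment over input as a ratio, and −log10 p and −log10 q values. In both e13.5 lists the deposited score equalled 10 times −log10 q rounded down in 100% of peaks, and the lowest −log10 q was 1.3. Enrichment and q-values were computed by the authors within each library, so their levels describe each list and are not on a common scale. The read depth is unknown.

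Autosomal, X and Y peaks entered (6 mandibular and 2 maxillary peaks on other sequences were left out) and merged where they overlapped. Transcript starts (132629 positions) came from GENCODE vM21 for GRCm38, as did 21911 protein-coding genes, and 208 of 208 chromosome ends of the lists lay within GRCm38 lengths. A region's gene was the nearest protein-coding gene. Widths, classes, intervals (exact Clopper-Pearson, 95%) and motif matches were computed with Python 3.11.15, numpy 2.4.6, pandas 2.3.3 and scipy 1.17.1, and drawn with matplotlib 3.10.9. RefSeq promoters were matched for 16522 genes. On the real lists all 11814 merged regions equalled those of bedtools 2.31.1, and in simulated lists all 1500 planted classes and 500 planted width ratios were recovered. Intervals cover counting error only. With 1 library per tissue no test was possible.

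The members, the gene lists and the rules were chosen with earlier results of these data known. Named genes were all members of the distal jaw and the maxillary and palate lists, the genes nearest to the 10 widest distal and 5 widest proximal one-library regions of each class, those at the 10 shared regions with the most extreme width ratios in each direction, the 5 genes with the most distal regions of each one-library class, and up to 4 members of each other list, those with the most one-library regions. Other genes were named after their values were seen, and some genes that the rule names are not reported here. Alternatives tried were equal yield (the 6887 best peaks of each list), only peaks reaching a −log10 q of 2, peaks of at least 500 bp, merging up to 1 kb apart, other distances to starts and genes, and a stricter overlap.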

Additional observations from a re-analysis of the deposited data

Results flagged for a closer look

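Between e11.5 and e13.5 the direction of the difference between the mandibular and maxillary lists was opposite for the number of peaks and for 5 of the 23 listed genes with a difference of at least 2000 bp within 10 kb of the 5′ end at both stages. The other 18 had the same direction, 10 with more in the mandibular and 8 with more in the maxillary lists. With 1 library per tissue and stage the change of direction was not tested. The mandibular minus the maxillary number of peaks was −3866 at e13.5 and 1831 at e11.5.

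In acetylated bases, mandibular minus maxillary, Gnaq, a G-protein gene of the endothelin pathway, had −2400 bp at e13.5 and 2061 bp at e11.5. Snai1, a zinc-finger gene of the neural crest, had −4280 bp and 5252 bp. Meis1, a homeobox gene of facial mesenchyme, had −5239 bp and 3460 bp. Fli1, an endothelial ETS factor gene, had −3307 bp and 4569 bp, and Ptch1, the Hedgehog receptor gene, had −3192 bp and 3355 bp. All 5 genes thus had more bases in whichever jaw list of the stage was the longer one.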

How the results depend on the processing

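No paired analysis was possible because each tissue has 1 library, and for the same reason no library could be left out. Of 125 values under alternative settings, 42 moved beyond the limit set (for a count, 1.5 times) and 83 did not, and the cause was not tested. With a −log10 q of at least 2, distal mandibular-only, maxillary-only and shared regions numbered 183, 691 and 341. In the same order the proximal regions numbered 106, 4481 and 3098, with a proximal Jaccard index of 0.403. The median distal log2 width ratio changed sign to −0.037. Of distal mandibular-only regions, 26.8% had an e11.5 mandibular and 15.9% an e11.5 maxillary peak. Mandibular-only promoters then numbered 77, and distal regions near the distal jaw list 0 mandibular-only and 1 maxillary-only, with 1 of each near the maxillary and palate list. With equal yield, distal mandibular-only, maxillary-only and shared regions numbered 1329, 195 and 402 (Jaccard index 0.209), proximal mandibular-only and maxillary-only regions 805 and 1970 (0.604), the median proximal log2 width ratio was −0.075, and promoters of 1 list 613 and 2052. The e11.5 mandibular and maxillary lists then held 28.3% and 19.2% of distal mandibular-only and 45.1% and 32.8% of maxillary-only regions. Near the distal jaw list 1 maxillary-only and 0 shared regions were left, and near the maxillary and palate list 0 maxillary-only. With peaks of at least 500 bp, 495 distal mandibular-only regions were left, of which 27.1% and 13.3% had an e11.5 mandibular or maxillary peak, and the distal Jaccard index was 0.344. Merging up to 1 kb apart gave a proximal Jaccard index of 0.532. Within 10 kb of a start, the distal jaw list had 0 mandibular-only, 2 maxillary-only and 0 shared distal regions and the maxillary and palate list 1 mandibular-only. Regions of 5 kb or more, examined after seeing the data, numbered 5 mandibular-only and 50 maxillary-only with a −log10 q of at least 2, and 27 and 10 with equal yield. Read depth is unknown, so the lists' yields limit every class count.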

Other observations

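Beyond the listed genes, the 20 kb windows with the largest excess in the mandibular list included the imprinted growth factor gene Igf2, with 8093 bp in the mandibular and 3632 bp in the maxillary list at e13.5 and 8254 bp and 0 bp at e11.5. Igfbp4, for a binding protein of insulin-like growth factors, had 8908 bp and 3577 bp, with 7471 bp and 2978 bp at e11.5. Both genes thus had more acetylated bases in the mandibular list at both stages. Dkk2, for a secreted Wnt modulator, had 4260 bp and 0 bp at e13.5 and 0 bp in both at e11.5.

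On the maxillary side, the homeobox gene Irx5 had 4237 bp in the mandibular and 12247 bp in the maxillary list, with 4214 bp and 8235 bp at e11.5, and Trps1, a zinc-finger gene of cartilage and hair, had 5653 bp and 12114 bp, with 4508 bp and 9136 bp at e11.5. The histone gene cluster at Hist1h2ak had 0 bp and 7860 bp at e13.5 and 8300 bp and 6693 bp at e11.5. These genes were chosen from the 20 largest window differences in each direction after their values were seen.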
